A study of Mus musculus with 9 samples.

Results

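The genes described here are 8 markers of simple and stratified epithelium in the mouse thyroid: the surface adhesion protein Epcam, the cadherins Cdh1 (E-cadherin) and Cdh16 (kidney-specific cadherin), and the keratins Krt7, Krt8, Krt18, Krt19 and Krt5. They were chosen by name and matched through their Ensembl identifiers, and all 8 were among the 52636 genes of the count table. The data are single-cell RNA counts from thyroids of male C57BL/6 mice, 9 samples in all, each a pool of thyroids from 6 mice taken 7 days after a single intraperitoneal antibody dose. The control group, RW, received an isotype control antibody against ragweed at 40 mg/kg. The ligand blockade group, aJ1aJ2, received antibodies against Jag1 and Jag2 at 20 mg/kg each. The receptor blockade group, aN1aN2, received antibodies against Notch1 at 5 mg/kg and Notch2 at 10 mg/kg. Each group had 3 samples, and the antibodies reached the whole animal, so a change in thyroid cells need not start in them. The labels give the mice's age as 10 to 12 weeks in the series design and 10 to 14 weeks in the treatment protocol.

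Epithelial cells hold together through cadherins, which bind the same cadherin on the neighbouring cell and link to actin through catenins, and through desmosomes, to which keratin filaments are anchored. A keratin filament is built from equal partners of type I and type II. Krt8 (type II) and Krt18 (type I) are the standard pair of simple epithelia, Krt7 (type II) and Krt19 (type I) are further simple-epithelial keratins, and Krt5 (type II) pairs with Krt14 in the basal layer of stratified epithelium. Thyroid follicles are a simple epithelium of thyrocytes, and Cdh16 is known as a cadherin of thyrocytes and kidney tubules. Notch signalling passes between touching cells, from ligands such as Jag1 and Jag2 to receptors such as Notch1 and Notch2.

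The table held 10186 cells with 63121420 unique molecular identifiers (UMIs, each standing for 1 captured RNA molecule) under 16 cell labels of the authors. Samples held 583 to 1805 cells and 3013324 to 11880793 UMIs. The labels put 1169 cells, 62 to 193 per sample, in Th1, whose 8 thyrocyte markers, Tg and Pax8 among them, were all detected in every sample. Th1 cells were shallower under receptor blockade, with a median of 5737 to 7558 UMIs per cell, against 12535 to 22558 in RW and 9968 to 15314 in aJ1aJ2. The 9 libraries held 10171 distinct barcodes, of which 15 occurred in more than 1 library, with at most 2 shared by any pair of libraries. The sample titles carry numbers in 3 ranges: RW 3 and aJ1aJ2 1 fall in range A, the remaining 2 RW and 2 aJ1aJ2 samples fall in range B, and the 3 aN1aN2 samples make up range C alone. Receptor blockade and range C therefore cannot be told apart.

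Krt8 and Krt18 lie next to each other on chromosome 15, and the sequence before their starts is shown because they moved in opposite directions in Th1 cells. In the GRCm38 build, with GENCODE M21 gene models, Krt8 spans chr15:101996698-102004482 on the minus strand and Krt18 spans chr15:102028180-102032027 on the plus strand. Their RefSeq starts face away from each other, 23874 bases apart, with 0 GENCODE genes lying wholly between the Krt8 and Krt18 genes. A lincRNA gene, Gm36026, overlaps Krt8. RefSeq promoter windows of 250 bases before the RefSeq start (GRCm38.p6) were searched on both strands for CACCTG (an E-box, letters bound by repressors such as Snai1 and Zeb1) and TGGGAA (the core letters bound by Rbpj, the DNA-binding partner of Notch). Printed 5′ to 3′ along each gene is the stretch of the window that lies before the GENCODE gene, chr15:102004483-102004592 on the minus strand for Krt8 and chr15:102027966-102028179 on the plus strand for Krt18, with capitals for CACCTG.
Krt8: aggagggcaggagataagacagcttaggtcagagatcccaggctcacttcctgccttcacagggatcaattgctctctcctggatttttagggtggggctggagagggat
Krt18: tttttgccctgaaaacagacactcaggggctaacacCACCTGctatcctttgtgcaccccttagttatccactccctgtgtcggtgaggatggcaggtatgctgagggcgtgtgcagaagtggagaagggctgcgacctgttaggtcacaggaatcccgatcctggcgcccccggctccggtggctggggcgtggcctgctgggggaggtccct

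The Krt18 window held CACCTG 214 bases before the RefSeq start and no TGGGAA. The Krt8 window held TGGGAA 134 and CACCTG 111 bases before it, both past the GENCODE start and so not in the stretch shown. The other windows in the table were those of Krt7, Krt5 and Epcam, each with the E-box (Epcam with 2 matches) and none with TGGGAA. Of all 32851 RefSeq windows of that length, 17.2% held the E-box and 21.6% held TGGGAA. A match describes the letters and is not a bound site.

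The simple-epithelial members were concentrated in thyrocytes. Of all their UMIs, Th1 held from 87.4% (Epcam) to 93.9% (Cdh16) for the 7 members other than Krt5, and Th3, a shallow label with thyrocyte markers, held 4.04% (Cdh1) to 5.14% (Epcam). Summed over samples, Epcam was at 664 CPM (UMIs of the gene scaled to a common total of UMIs) in Th1 and 604 CPM in Th3, Cdh16 at 337 and 270 CPM, Krt8 at 350 and 279 CPM, and Krt18 at 372 and 306 CPM. Cdh1 was at 162 CPM in Th1 and 112 CPM in Th3, Krt7 at 269 and 211 CPM, and Krt19 at 148 and 110 CPM. The ranges over samples of Th1 and Th3 overlapped for each of these 7 genes, so their order is not beyond the spread. In Th2, a label of 137 cells that carried neutrophil markers (19485 CPM) beside thyrocyte markers (28441 CPM), the levels ran from 56.9 CPM (Krt19) to 165 CPM (Krt18). How the authors made the labels is not given and the members may have shaped them, so levels between labels are given without a test.

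**Figure D1:**
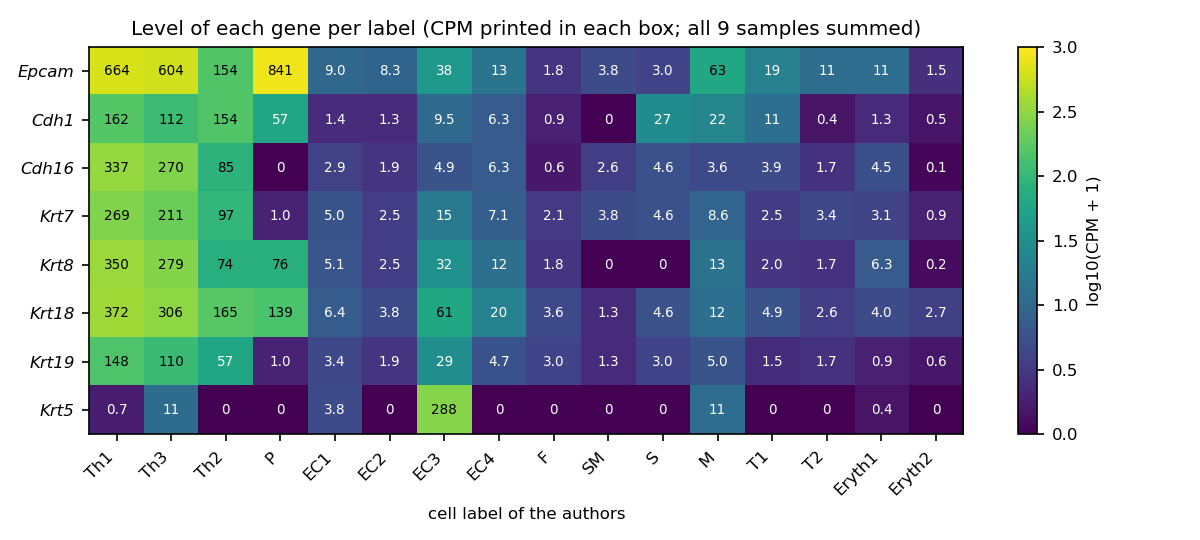
Level of each gene (rows) in each of the 16 cell labels of the authors (columns), as CPM over all 9 samples summed, printed in each box and coloured on a log10(CPM + 1) scale. The 7 simple-epithelial genes are high in Th1 and Th3, Epcam is also at 841 CPM in P, and Krt5 stands out in EC3 alone, from a single cell.

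In droplet data, free RNA and doublets can give a cell UMIs of genes it does not express. Thyroglobulin (Tg), the thyrocyte's storage protein, was at 92030 CPM in Th1, 975 CPM in EC1 (endothelial markers) and 248 CPM in P. Each member's Th1 counts were scaled to the Tg of the other labels, sample by sample, and set beside the counts found. The scaling treats Tg as coming wholly from Th1 and is a yardstick, not a correction. In EC1, which had 1603 cells, Epcam had 90 UMIs against 72.8 scaled, Cdh16 had 29 against 35.5 and Cdh1 had 14 against 17.6. Krt8 had 51 against 38.0, Krt7 had 50 against 28.7, Krt18 had 64 against 40.4 and Krt19 had 34 against 15.9. By group, with no test of the difference, Epcam in RW had 28 against 31.3, Cdh1 4 against 7.58 and Krt8 17 against 16.7, while in aN1aN2 they had 24 against 9.82, 6 against 2.76 and 10 against 3.62. Cdh16 had 13 against 20.04 in RW and 3 against 2.86 in aN1aN2. Krt7, Krt18 and Krt19 were above the scaled values in both groups, with 18 against 12.1, 23 against 14.4 and 15 against 7.75 in RW and 16 against 3.82, 16 against 8.43 and 7 against 1.87 in aN1aN2.

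The parathyroid label carried several members far above that yardstick. P had 77 cells, and its parathyroid markers (Pth, Gcm2, Casr and Chga) summed to 466048 CPM. Epcam had 870 UMIs there, 841 CPM (95% exact Poisson interval 786 to 899, counting error only), in 58 of the cells, where the Tg yardstick gave 1.82 UMIs. Krt18 had 144 UMIs (139 CPM, yardstick 1.06), Krt8 had 79 (76.4 CPM, yardstick 0.919) and Cdh1 had 59 (57.0 CPM, yardstick 0.448). The parathyroid cells thus carried Epcam, Cdh1 and the Krt8 and Krt18 pair. Krt7 and Krt19 had 1 UMI each, and Cdh16 and Krt5 had 0, which allows up to 2.90 CPM at a floor of 3 counts. P was present in 8 of the 9 samples, with 3 to 22 cells, and Epcam lay between 523 and 987 CPM in those 8. Only aN1aN2 2 had 20 P cells or more, so no test between groups was made there.

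Smaller signals lay in nerve and immune labels. In S, a label of 193 cells with Schwann cell markers at 20645 CPM, Cdh1 had 18 UMIs in 15 cells, 27.4 CPM, against 0.966 by the Tg yardstick. All 15 cells also had UMIs of the myelin gene Mbp, and 12 had Sox10, beside 90.7% and 54.4% of all S cells, while Krt8 had 0 UMIs in the label (up to 4.56 CPM). In T1, a label with T and NK cell markers, Cdh1 had 23 UMIs in 17 cells against 2.49 scaled, and Epcam had 39 against 10.7. Cdh16 was nearer the yardstick in the same labels, with 3 UMIs against 1.93 in S and 8 against 5.16 in T1. In M, the macrophage label, Epcam had 87 UMIs (62.6 CPM, yardstick 12.9), and 7 cells with at least 3 UMIs each, chosen after the values were seen, held 72 of them. Those 7 cells had 200 to 838 UMIs of Cd74, the invariant chain of MHC class II, at a level near that of the other M cells (33953 and 30332 CPM), and 6 of them had 0 UMIs of the macrophage gene C1qa, which was at 4761 CPM in the other M cells. Without these 7 cells Epcam was at 11.9 CPM in M.

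**Figure D2:**
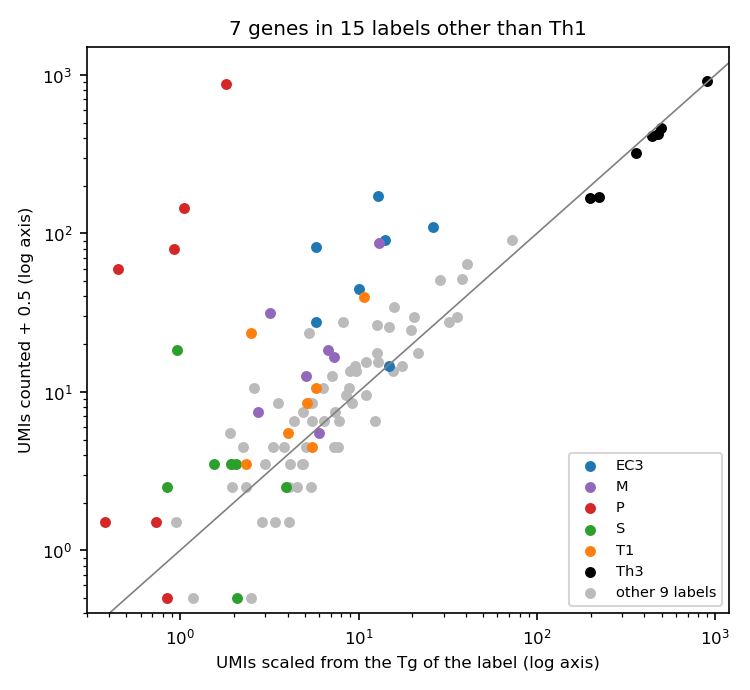
UMIs counted plus 0.5 (vertical, log axis) against UMIs scaled from the Tg of the label (horizontal, log axis) for the 7 members other than Krt5 in the 15 labels other than Th1, 1 point per gene and label. Th3 lies along the line of equal values, and the points farthest above it are Epcam, Krt18, Krt8 and Cdh1 in P, with 870, 144, 79 and 59 UMIs.

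Krt5, the basal keratin, was found in a few cells. It had 904 UMIs in 7 cells, and the 6 cells with at least 3 UMIs, all of which also had Epcam, held 99.9% of them. Of these 6 cells 4 came from RW 2. A single RW 2 cell labelled EC3, with 120349 UMIs in all, held 813 Krt5 UMIs together with 241 of Krt14 and 205 of Krt17. It also held 43 of Trp63 (the master factor of basal epithelium), 92 of Epcam and 143 of Krt18. The same cell had 707 UMIs of Cd74, 264 of the MHC class II gene H2-Aa and 16 of Pax9. Of thymic epithelial genes it had 1 UMI of Foxn1, 2 of Prss16 and 0 of Psmb11, and its tissue of origin was not tested. An RW 3 cell labelled EC1 held 38 Krt5 UMIs with 40 of Krt14 and 28 of Krt15. Beside these it held 22 UMIs of Pecam1 and 11 of Cdh5, both endothelial markers. An RW 2 cell labelled Th3 held 16 Krt5 UMIs, with 18 of Trp63 and 13 of Krt15. The other 3 cells held 17 Krt5 UMIs (RW 2, Th1), 15 (RW 2, M) and 4 (aJ1aJ2 4, EC3). The M cell had 30 UMIs of the chemokine Ccl21a, and the aJ1aJ2 4 cell 21 of Trp63 and 5 of the thymic epithelial gene Psmb11. The Th1 cell also held 4406 UMIs of Tg, 24 of Pecam1 and 16 of Cdh5. Whether any of the 6 cells was a doublet was not tested. The large RW 2 cell alone gave EC3 most of its counts of the members other than Cdh16. Without the cells with at least 3 Krt5 UMIs, Epcam in EC3 went from 38.4 to 4.79 CPM and Krt18 from 60.5 to 6.63 CPM. Cdh16 had 14 UMIs in EC3 with or without those cells, 12 of them in a different cell.

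Under receptor blockade 5 of the 7 members fitted in Th1 differed from RW, in both directions. The antibodies cannot be told apart from title number range C here, and the aN1aN2 cells were also shallower. Cdh16, Krt8, Krt19 and Epcam fell, by 1.36, 0.79, 0.68 and 0.25 on the log2 scale, while Krt18 rose by 0.60, and Cdh1 and Krt7 did not pass. Krt5, with 17 UMIs in 1 Th1 cell, was too low to be fitted. Over all 10627 genes tested, 34.4% were called in this comparison (17.1% higher, 17.3% lower), so the count of members is read against a broad change. Calls are at a Benjamini-Hochberg adjusted p under 0.05 from edgeR's quasi-likelihood test on UMIs summed per sample over all genes, with n = 3 per group, and the per-sample levels that follow are CPM of Th1 cells with library totals adjusted by TMM.

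Cdh16 was the member with the largest change. It was at 421, 485 and 429 CPM in RW 1, 2 and 3, at 362, 286 and 261 CPM in aJ1aJ2 1, 3 and 4, and at 159, 151 and 216 CPM in aN1aN2 1, 2 and 3. Every aN1aN2 sample lay below every aJ1aJ2 sample, and every aJ1aJ2 sample below every RW sample. Against RW the receptor blockade change was −1.36 (SE 0.15, adjusted p = 5.53e-06). Against aJ1aJ2 it was −0.81 (SE 0.15, adjusted p = 0.00114).

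The Krt8 and Krt18 partners moved apart. Krt8 was at 352, 364 and 386 CPM in RW, 564, 333 and 414 CPM in aJ1aJ2, and 222, 182 and 237 CPM in aN1aN2. The aN1aN2 samples lay below all others, and the change against RW was −0.79 (SE 0.16, adjusted p = 0.00147). A Krt8 pseudogene, Krt8-ps, is annotated, and how reads shared with it were counted is not given in the sources used here. Krt18 was at 293, 335 and 327 CPM in RW, 462, 370 and 397 CPM in aJ1aJ2, and 547, 423 and 479 CPM in aN1aN2. Its aN1aN2 samples all lay above the RW samples, by 0.60 (SE 0.12, adjusted p = 0.00113), but overlapped the aJ1aJ2 samples.

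The ratio of Krt8 to Krt18 UMIs within each sample does not depend on library scaling, and it is read between samples and not as a ratio of the proteins. In Th1 it was 1.20, 1.09 and 1.18 in RW (mean 1.16 ± 0.0604 SD, n = 3), 1.22, 0.899 and 1.04 in aJ1aJ2 (1.05 ± 0.160) and 0.405, 0.431 and 0.495 in aN1aN2 (0.444 ± 0.0462). The 3 receptor blockade samples lay far below the other 6, which overlapped. The mean log2 ratio differed by −1.39 between aN1aN2 and RW and by −1.24 between aN1aN2 and aJ1aJ2, each with a two-sided exact permutation p = 0.1 (0.15 adjusted over 3 pairs), which is the smallest that 3 against 3 samples allow. Between aJ1aJ2 and RW it differed by −0.15 (exact permutation p = 0.4, also 0.4 adjusted). Th3 held the same order in its own, much smaller counts: 1.49, 0.848 and 1.18 in RW, 0.941, 0.902 and 0.817 in aJ1aJ2, and 0.385, 0.333 and 0.138 in aN1aN2. Parathyroid markers, whose own label had a ratio of 0.549, summed to 125 to 294 CPM in the Th1 cells of aN1aN2 and 10.0 to 48.5 CPM in those of RW, against 466048 CPM in P. Of the 4 markers 2 to 3 were present in each aN1aN2 sample and 3 in each RW sample, with Gcm2 or Casr at 0. In the Th1 cells of aJ1aJ2 the parathyroid markers summed to 19.7 to 69.1 CPM. C cell markers in Th1 summed to 505 to 1185 CPM in RW, 128 to 2710 CPM in aJ1aJ2 and 1143 to 2038 CPM in aN1aN2, all overlapping. The part of either cell type in the ratio was not tested.

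**Figure D3:**
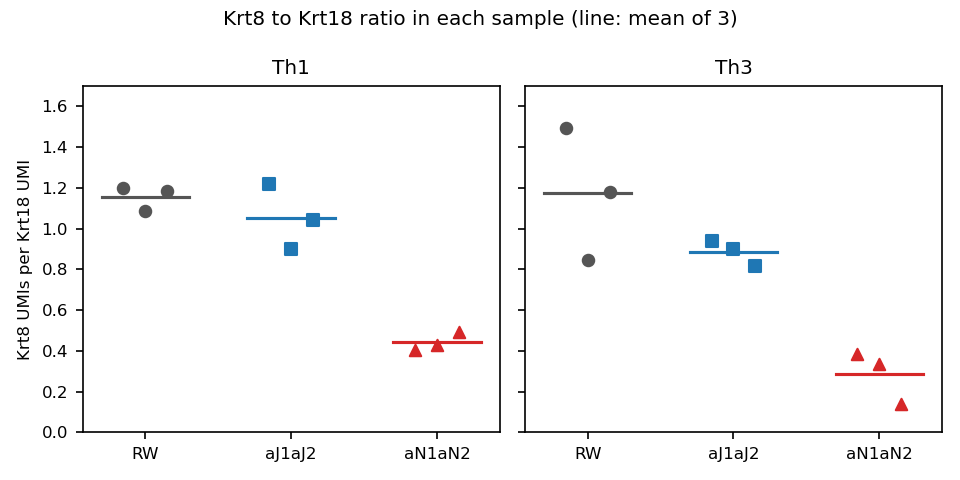
Krt8 UMIs per Krt18 UMI in each sample, for Th1 (left) and Th3 (right), by antibody group, with a line at the mean of 3 samples. In both labels the 3 aN1aN2 samples lie below 0.5 and the other 6 above 0.8.

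Krt7 and Krt19, the other simple-epithelial keratins, moved less evenly. Krt19 was at 162, 203 and 156 CPM in RW, 199, 136 and 131 CPM in aJ1aJ2, and 122, 85.4 and 115 CPM in aN1aN2. The aN1aN2 samples lay below all others, and the change against RW was −0.68 (SE 0.18, adjusted p = 0.00709). It lost the call without aN1aN2 2 (adjusted p = 0.0569). Krt7 was at 268, 267 and 267 CPM in RW, 444, 239 and 293 CPM in aJ1aJ2, and 218, 227 and 242 CPM in aN1aN2. Its RW samples were nearly equal and all above the aN1aN2 samples, yet its change of −0.23 (SE 0.17) had an adjusted p of 0.323. The Krt7 gene overlaps an antisense gene, Gm671, and the strand used in counting is not given in the sources used here.

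Of the adhesion genes, Epcam fell slightly and Cdh1 stayed within its spread. Epcam was at 675, 690 and 701 CPM in RW, 651, 684 and 734 CPM in aJ1aJ2, and 581, 575 and 579 CPM in aN1aN2. All aN1aN2 samples were below all others, but the change of −0.25 (SE 0.09, adjusted p = 0.0419) lost the call without any 1 of the 6 libraries (adjusted p = 0.0778 to 0.116) and with no filter on low counts (0.0789). Cdh1 was at 188, 165 and 149 CPM in RW, 162, 152 and 169 CPM in aJ1aJ2, and 158, 158 and 181 CPM in aN1aN2. The groups overlapped, and the change of −0.02 (SE 0.11) had an adjusted p of 0.910.

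**Figure D4:**
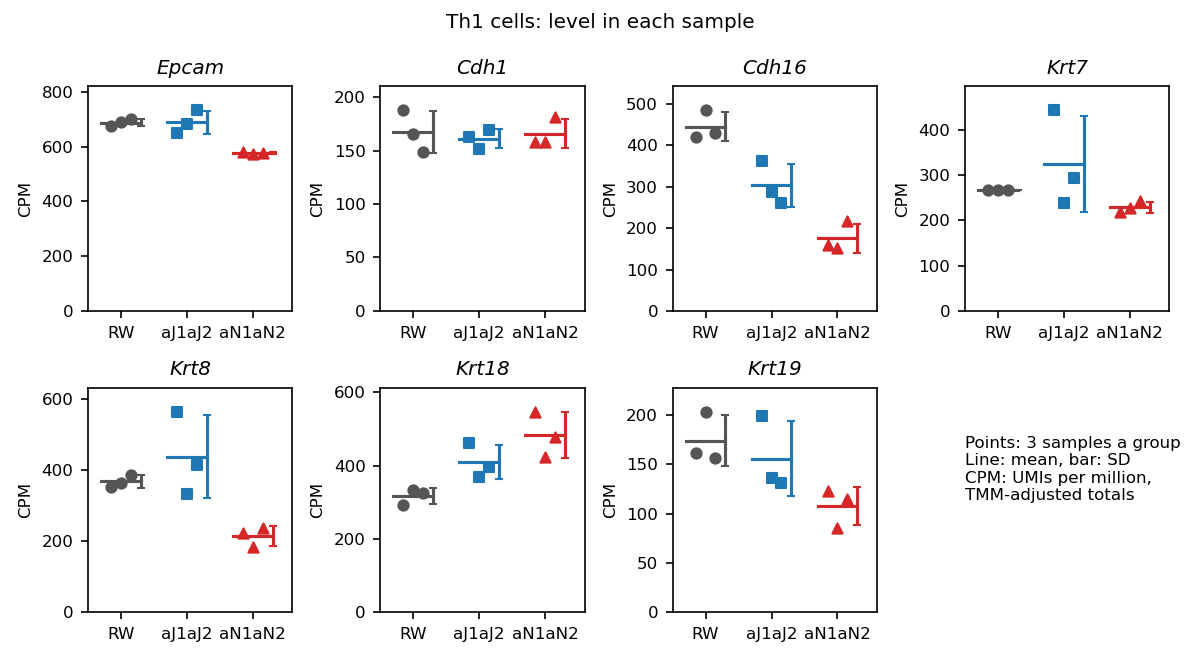
Level of the 7 fitted members in Th1 cells of each sample (CPM, TMM-adjusted totals), by antibody group, with the mean as a line and the SD as a bar (n = 3 pools per group). Cdh16 steps down from RW to aJ1aJ2 to aN1aN2, Krt8 and Krt19 are lowest and Krt18 highest by mean in aN1aN2, and Cdh1 overlaps between all groups.

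The lower depth of the aN1aN2 cells moved with these results, so they were set beside values that take depth out in part. Among Th1 cells with at least 5000 UMIs the changes against RW were −1.42 for Cdh16, −0.78 for Krt8, −0.69 for Krt19, −0.26 for Epcam and 0.60 for Krt18, and all 5 were called. With every Th1 cell thinned to 2000 UMIs, 50.6% to 64.3% of cells had a Cdh16 UMI in the RW samples, 38.0% to 41.1% in aJ1aJ2 and 26.1% to 35.7% in aN1aN2. The thinned share for Krt8 was 47.2% to 50.6% in RW and 34.8% to 42.9% in aN1aN2, and for Krt19 it was 24.4% to 39.3% and 13.0% to 21.1%. For Epcam the thinned shares overlapped, with 64.3% to 73.1% in RW and 64.3% to 72.2% in aN1aN2, while unthinned they were 94.0% to 100% and 88.6% to 92.2%. For Krt18 the thinned shares also overlapped, with 40.6% to 53.6% in RW and 53.0% to 65.8% in aN1aN2. The unthinned shares, for comparison, were 95.2% to 99.4% in RW and 61.7% to 72.6% in aN1aN2 for Cdh16, and 92.9% to 93.9% and 85.2% to 89.9% for Krt18. Thinning left out 1 cell of RW, 1 of aJ1aJ2 and 25 of aN1aN2.

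Ligand blockade against RW gave no call among the members in Th1 by the quasi-likelihood test, where 0.612% of genes (65 of 10627) were called, and 2 of the 7 members were at an unadjusted p under 0.05, as were 12.3% of all genes. These were Cdh16, with a change of −0.55 (SE 0.14, unadjusted p = 0.00125, adjusted p = 0.0905), and Krt18, with 0.36 (SE 0.12, unadjusted p = 0.00723, adjusted p = 0.190). Both had samples that did not overlap between the groups, Cdh16 lower in aJ1aJ2 and Krt18 higher, as did 15.4% of all genes in either direction. Krt7 and Krt8 had changes of 0.28 and 0.24, with aJ1aJ2 1 and aJ1aJ2 4 above and aJ1aJ2 3 below every RW sample. Leaving out each library put the Krt8 change at 0.0138 to 0.410. Krt19 was at −0.15, Cdh1 at −0.06 and Epcam at 0.00. Cdh16 passed with DESeq2 (adjusted p = 0.0216), with no filter (0.000717, where Krt5 was also called from its 17 UMIs in 1 RW 2 cell), with the title number range as a term (0.0322), without aJ1aJ2 1 (0.00618) and within range B, where its change was −0.71 (adjusted p = 0.000567). Within range B, with 2 samples per group, Krt19 also passed, at −0.42 (adjusted p = 0.0476).

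Receptor blockade against ligand blockade gave 4 calls of the 7 members in Th1, all lower, where 22.3% of genes were called (11.5% lower). Krt8 was lower by −1.03 (SE 0.16, adjusted p = 0.000328) and Cdh16 by the value above, and both kept their calls in 6 of 6 fits without a library and in 7 of 7 other alternatives. Krt7, at −0.50 (adjusted p = 0.0446, samples overlapping), and Krt19, at −0.53 (adjusted p = 0.0422), were less firm: leaving out 1 library kept the call in 1 of 6 fits for Krt7 and 2 of 6 for Krt19. Without aJ1aJ2 1 the changes were −0.21 for Krt7 and −0.32 for Krt19. Epcam was at −0.25 (adjusted p = 0.0559), Krt18 at 0.24 (adjusted p = 0.168) and Cdh1 at 0.04 (adjusted p = 0.874). Both blockade groups are set against the same RW samples above, so those 2 sets of changes are not independent.

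Outside Th1, calls were few, and members had counts enough to be fitted only in EC1 (4 members), EC3 (1) and Th3 (7). In the other labels tested no member was fitted, so nothing is said of the members there. Against RW, ligand blockade gave 0 calls by edgeR over these 12 pairs of member and label, and 0 with DESeq2. Over all pairs of gene and label in the 11 labels tested, 0.677% were called by edgeR. Of the 12 pairs 0 were at an unadjusted p under 0.05 (9.24% of all pairs were). Receptor blockade gave 3 calls of the same 12 pairs, while 14.5% of all pairs in the 8 labels tested were called. Of the 12 pairs 6 were at an unadjusted p under 0.05 (27.1% of all pairs were). Of the 3 calls 1 lay in Th3, where 5.03% of genes were called, and 2 in EC1, where 17.8% were. In Th3, Cdh16 had 167, 39 and 65 UMIs in RW, 22, 24 and 65 in aJ1aJ2, and 11, 7 and 9 in aN1aN2. On plain totals, without the TMM adjustment of the fit, that is 490, 268 and 330 CPM, 156, 216 and 258 CPM, and 121, 40.2 and 143 CPM. All aN1aN2 samples were lowest, and the change against RW was −1.82 (SE 0.40, adjusted p = 0.0267). It lost the call without any 1 of RW 1, 2 or 3 or aN1aN2 3, and with sums of at least 50 cells, which leaves aN1aN2 3 out. Krt8 in Th3 was at −1.78 (SE 0.47, adjusted p = 0.0556), and it passed with DESeq2 (adjusted p = 0.0143), with no filter (0.00285) and without aN1aN2 1 (0.0277). A test of whether the change under receptor blockade differed between Th3 and Th1 called 0 of 8175 genes (edgeR interaction term, smallest adjusted p among the members 0.710), with 3 of the 7 members, Cdh1, Krt8 and Epcam, at an unadjusted p under 0.05, as were 6.63% of all genes. Th3 also held markers of other cells. All RW samples had more of the C cell markers than the others, at 37032 to 68200 CPM (6 to 7 of 7 present), against 2731 to 20239 CPM in aJ1aJ2 and 827 to 10531 CPM in aN1aN2 (3 to 6 present, Calcb at 0 in all 3). Airway epithelial markers were at 20343 CPM in RW 3 (4 of 7 present) and at 0 to 55.0 CPM elsewhere. Skeletal muscle markers stood out in aJ1aJ2 1 and aN1aN2 2, at 53391 and 94979 CPM, beside 44.1 to 796 CPM in the other 7 samples, and erythroid markers in aJ1aJ2 4, at 23984 CPM beside 121 to 1787 CPM in the other 8. Their part in the Th3 values was not tested.

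In EC1 the counts were small, and in aN1aN2 those of Epcam and Krt18 were above the Tg yardstick. Epcam had 6, 8 and 14 UMIs in RW, 3, 19 and 16 in aJ1aJ2, and 16, 3 and 5 in aN1aN2, and its change under receptor blockade was 1.90 (SE 0.50, adjusted p = 0.0102). Krt18 had 4, 6 and 13, then 2, 9 and 14, and then 9, 5 and 2 UMIs, with a change of 1.61 (SE 0.55, adjusted p = 0.0454). By group, Epcam had 28 UMIs in RW against 31.3 by the yardstick and 24 in aN1aN2 against 9.82, and Krt18 had 23 against 14.4 and 16 against 8.43. The part of thyrocyte RNA in these 2 calls was not tested. Without aN1aN2 1 neither was called, and Krt18 also lost its call without RW 1, RW 2 or aN1aN2 2, with DESeq2 and with no filter on low counts. Receptor against ligand blockade gave 0 calls over the same 12 pairs in EC1, EC3 and Th3. Over all pairs in the 9 labels tested, 9.77% were called. Of the 12 pairs 4 were at an unadjusted p under 0.05 (22.0% of all pairs were). DESeq2 gave 1 call (Krt8 in Th3, adjusted p = 0.0327).

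The members do their work with other junction and regulator genes, which were followed as lists in Th1. Of 96 genes in 7 epithelial lists, 67 were fitted, and under receptor blockade 23 of these (34.3%) were called against RW, which is near the 34.4% over all genes. Of the 67, 18 were higher (26.9%) and 5 lower (7.46%), beside 17.1% and 17.3% over all genes, and the median change was 0.21 beside 0.02. Without RW 3 or without aN1aN2 1 the calls fell from 23 to 14 and 13. No list was tested against other genes, so the counts that follow are descriptions.

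Of 13 fitted desmosome and keratin-anchoring genes, 6 were higher (46.2%, beside 17.1% over all genes) and 0 lower (beside 17.3%), with a median of 0.42. Perp, a desmosome membrane protein, went from 71.4 ± 15.7 CPM (SD, n = 3) in RW to 298 ± 41.0 CPM in aN1aN2, a change of 2.02 (SE 0.15, adjusted p = 1.65e-07). The plakins Ppl and Dst, which tie keratin filaments to desmosomes and to the basal membrane, rose by 0.82 and 0.77 (adjusted p = 0.00101 and 0.00196). Of 15 tight junction genes, 5 were higher (33.3%) and 1 lower (6.67%), with a median of 0.28. The strand proteins Ocln and Cldn4 rose by 1.18 and 0.83 and the scaffold Tjp1 by 0.73, while Cldn7 fell by 0.83 (adjusted p = 5.68e-05). Cldn7 was at 281 ± 24.5 CPM in RW and 158 ± 12.6 CPM in aN1aN2.

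In 3 further lists the share of higher genes was near the 17.1% over all genes. Of 9 cadherin-catenin genes, 2 were higher (22.2%) and 0 lower (median 0.03): Ctnnd1 (p120-catenin, which holds cadherins at the surface) by 0.54 and Jup (plakoglobin) by 0.40. Of 13 polarity and surface genes, 3 were higher (23.1%) and 1 lower (median 0.31), with the polarity genes Pard6b and Prkci up by 1.02 and 0.75, the protease Prss8 up by 0.60 and Cd24a at −0.32. Of 13 epithelial transcription and splicing factors, 2 were higher (15.4%) and 1 lower (median 0.09): Ovol2 at 1.16 and Grhl1 at 0.74, both regulators of epithelial genes, and the splicing factor Esrp2 at −0.67. Of 3 other cadherins fitted, Cdh4 (R-cadherin) fell by 1.53 (adjusted p = 1.67e-06), from 62.1 ± 4.47 CPM in RW to 21.1 ± 1.85 CPM in aN1aN2. The only other keratin fitted, Krt10, was at −0.54 (adjusted p = 0.0481, samples overlapping), and it is named after its values were seen.

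Of 15 genes of the mesenchymal transition list 7 were fitted, and under receptor blockade 0 were higher and 4 lower than in RW (57.1%, beside 17.3% over all genes), with a median of −0.67. Fn1 (fibronectin) fell by 2.91, Vim (vimentin) by 1.75 and Sparc by 0.67. Fn1 was at 22.4 ± 3.56 CPM in RW and 2.51 ± 2.23 CPM in aN1aN2, and Sparc, a matrix protein, at 436 ± 7.20 and 274 ± 14.1 CPM. Acta2, named after its values were seen, was at −2.75 with overlapping samples. In the same Th1 cells all 5 endothelial markers were present in each sample and summed to 364 to 499 CPM in RW and 76.8 to 390 CPM in aN1aN2. Mural cell markers, 2 to 5 of 5 present in RW and 3 to 4 in aN1aN2 (Cnn1 at 0 in all 3), were at 12.7 to 79.9 CPM and 12.6 to 16.04 CPM. Fibroblast markers, 3 to 5 of 5 present in RW and 1 to 2 in aN1aN2 (Pdgfra, Col1a1 and Lum at 0 in all 3), were at 3.63 to 12.7 CPM and 8.21 to 12.9 CPM. All 5 macrophage markers were present in each RW sample, at 41.4 to 104 CPM, while in aN1aN2 1, 2 and 3 they were at 2.19, 0 and 72.2 CPM with 2, 0 and 5 of 5 present. The part of these cell types in the lower mesenchymal genes was not tested.

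**Figure D5:**
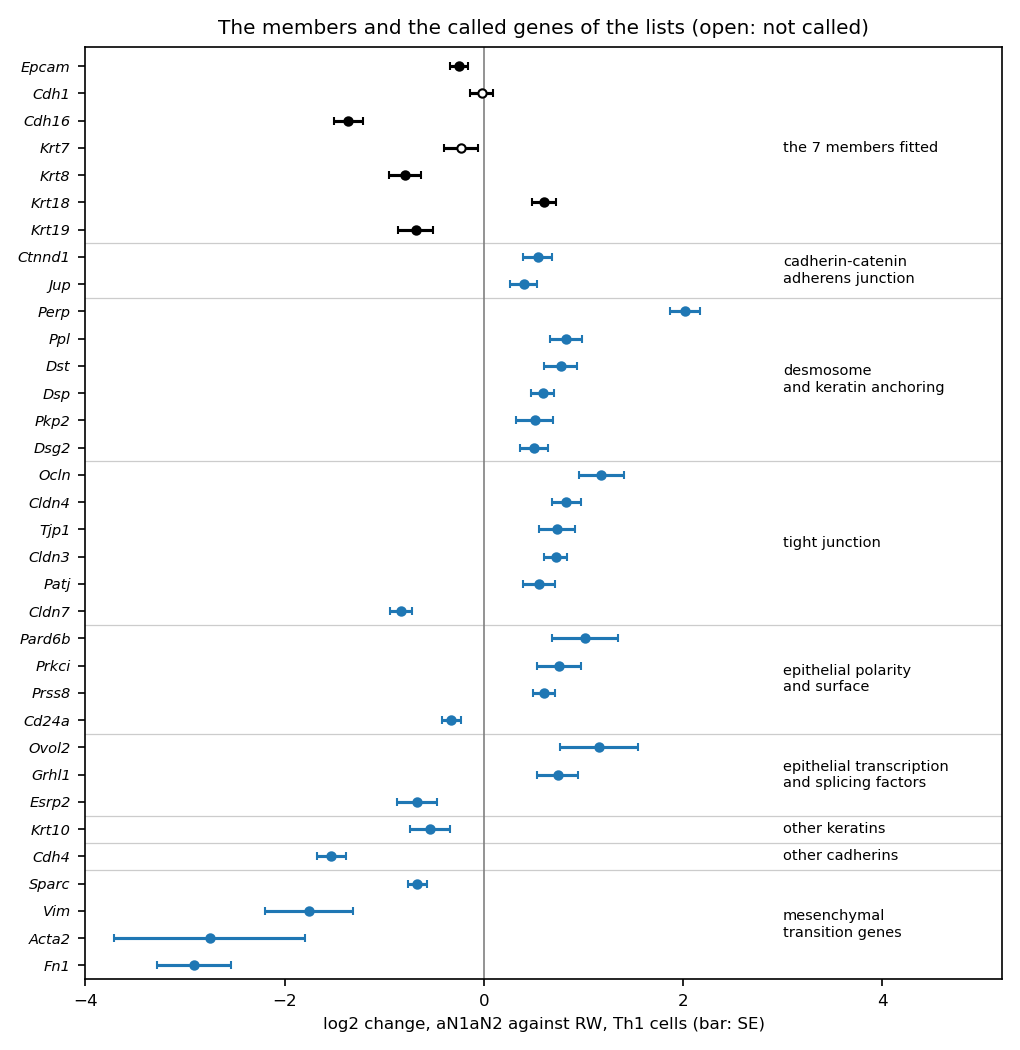
Change on the log2 scale in Th1 cells, aN1aN2 against RW (horizontal, bars are SE), for the 7 fitted members (black, open where not called) and for the list genes called in this comparison (blue), grouped by list. Krt18 rises while Cdh16, Krt8, Krt19 and Epcam fall, and 6 of 6 called desmosome genes and 5 of 6 called tight junction genes lie to the right of 0.

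Against aJ1aJ2, receptor blockade gave 8 higher and 5 lower calls among the 67 list genes, 19.4% in all, below the 22.3% over all genes. Perp (1.72), Ppl (0.65) and Dsp (0.40) of the desmosome list were higher, and Cldn7 (−0.72), Cgn (−0.58), Esrp2 (−0.91) and Cdh4 (−1.92) were lower. Patj (0.55), Tjp3 (0.41), Prss8 (0.47) and Spint2 (0.30) were also higher, Cd24a (−0.37) was lower, and the mesenchymal genes Fn1 (−2.68), Vim (−1.78) and Sparc (−0.35) were lower. Ligand blockade against RW gave 1 call in all the lists, Ocln at 1.07 (SE 0.21, adjusted p = 0.0359). That is 1.49% of the 67 fitted epithelial list genes, beside 0.612% over all genes. No epithelial list gene was called with Th1 pooled with Th3, or without RW 1, RW 2, aJ1aJ2 3 or aJ1aJ2 4. Ocln was at 14.6 ± 2.19 CPM in RW and 30.5 ± 5.21 CPM in aJ1aJ2, with no overlap.

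Over the 105 sums of sample and label with at least 20 cells, the 7 simple-epithelial members followed each other, with Pearson r from 0.743 to 0.864 between pairs on log2(CPM + 1), while Krt5 reached at most 0.245 with any of them. These values are a description: the sums share libraries, depth and the split into thyrocytes and other cells. Among 13726 genes with at least 100 UMIs, with the members themselves left out of the ranking, the gene most like Cdh16 was Tg (r = 0.903), followed by Cldn7 and the anion transporter Slc26a7. Cldn7 was also the most like Epcam (0.863) and Krt18 (0.862), Tjp3 the most like Cdh1 (0.848), and the antisense gene Gm16136 the most like Krt8 (0.849). For Krt7 it was Plet1 (0.847) and for Krt5 it was Krt14 (0.901), its filament partner, which rests on the few cells described above.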

How the data were processed

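The submitters' processing notes name Cell Ranger and the GRCm38 build; their settings and the version are not given in the sources used here. The authors deposited raw UMI counts per gene and cell (10x 3′ v2 libraries, per the labels' protocols) and a table of cell labels. Ensembl identifiers were matched to symbols for 52403 of 52636 genes, and 2619 annotation lines with shifted columns were realigned. How cell labels were made, and how doublets were treated, is not given; no doublet caller was run here. The members and gene lists were chosen with earlier results of these data known.

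UMIs of each gene were added up within a sample and label, and the sums were fitted with edgeR 4.0.16 (filterByExpr, TMM, quasi-likelihood test, Benjamini-Hochberg over all genes tested, threshold 0.05), with all 9 samples in 1 fit. A label was tested where at least 2 samples of each group had 20 cells. On simulated Th1 counts (10429 genes, aN1aN2 against RW) 57.1% of genes changed 2-fold and 96.9% changed 4-fold were called. Mice in a pool are not separable, so p-values measure the spread between pools. Intervals and floors cover counting error only. Named list genes were up to 3 called genes per list and direction with the largest change and non-overlapping samples; likeness names the genes with the highest r, and that of Krt19 is not reported here. Likeness over the 9 Th1 sums alone is not given, since the aN1aN2 samples stand apart. Alternatives were DESeq2, its size factors, no filter, plain totals, Th1 with Th3, deeper cells, only the compared groups, title number ranges, a replicate block and each library left out.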

Additional observations from a re-analysis of the deposited data

How the results depend on the processing

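No member called in Th1 changed direction under any alternative run, and Cdh16, Krt8 and Krt18 kept their Th1 calls against RW throughout. In Th1, ligand blockade against RW called 0 members, but 1 by DESeq2, 2 without the low-count filter (Cdh16, and Krt5 from its 17 UMIs in 1 RW 2 cell), 1 with the title number range as a term, 2 within range B, and 0 to 1 leaving out each library. Receptor blockade against RW called 5 members, and 3 to 4 leaving out each library; without the filter it also called 5, with Krt5 in and Epcam out. Receptor against ligand blockade called 4, but 2 with Th1 pooled with Th3, and 2 to 4 leaving out each library. The epithelial list genes called were, for ligand blockade, 1 in the fit described, 3 with no filter, 0 with Th1 pooled with Th3, 2 with the range as a term, 4 within range B and 0 to 4 leaving out each library; for receptor blockade, 13 to 22 leaving out each library; and against aJ1aJ2, 6 to 12. In the other labels, no filter gave 8 calls for ligand blockade, 11 for receptor blockade and 1 between blockades. Of these, 6 of the 8 and 6 of the 11 lay in EC3, where a single RW 2 cell held most UMIs of the members called. DESeq2 gave 1 between blockades, and leaving out each library gave 1 to 3 for receptor blockade and 0 to 1 between blockades.

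Uncalled changes near 0 took the other sign in 15 fits, and their cause was not tested. Epcam under ligand blockade was at −0.00387 with DESeq2, −0.00338 with its size factors, −0.00780 with no filter, −0.0171 with Th1 pooled with Th3, and −0.0459 to 0.0407 leaving out each library. Krt7 under ligand blockade was at −0.0202 within range B and −0.0172 to 0.464 leaving out each library. Cdh1 ran from −0.143 to 0.0305 under ligand blockade and from −0.108 to 0.0853 under receptor blockade leaving out each library. Between blockades Cdh1 was at −0.0192 in cells with at least 5000 UMIs and −0.0236 to 0.0862 leaving out each library. Labels share some replicate numbers, so RW 1 and 2 were also paired with aN1aN2 1 and 2: the replicate block called 6 members and 20 list genes, against 6 and 19 in the same 4 samples unblocked, the added member being Krt7 (adjusted p = 0.0485 and 0.0387). Deviations from the group means had r = 0.0244 and −0.0134 between same-numbered samples and 0.104 and 0.00809 between differently numbered ones. With so few pairs this cannot tell whether same-numbered samples share more than a number. The log2 ratio of Krt8 to Krt18 stayed between −1.47 and −1.32 for aN1aN2 against RW.

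Depth limits the rare signals: member counts in S, T1 and EC1 are small, P has few cells per sample, small sums outside Th1 left most pairs of member and label untested, and 3 pools per group limit every test.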
